A study of Homo sapiens with 6 samples.

Results

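The neuroendocrine secretory vesicle genes described here are 10 named genes, SYP, CPLX2, SCG3, CHGA, CHGB, SCG2, SCG5, SYT1, ENO2 and INSM1, out of 26336 named genes in the tables. They were chosen by name, with their values in SW620 known, as genes of the regulated secretory pathway in which a TEAD4 knockdown could be set against its control library by library. The same 10 genes were then read in HCT116. SW620 is a colorectal cancer line from a lymph node metastasis, and HCT116 is a line from a colon carcinoma. SW620 and HCT116 cells each gave 2 libraries with TEAD4 knocked down (shTEAD4) and 1 library with the pLKO hairpin vector as control, which makes 6 libraries. All cells were grown in DMEM with serum, and the labels name no other treatment. TEAD4 is a TEA domain factor through which YAP and TAZ, the effectors of Hippo signalling, reach DNA. The knockdown libraries are numbered as in the deposited columns, and the labels do not say whether they came from separate hairpins or separate cultures. The spread between them may thus be technical.

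Neuroendocrine cells store peptide hormones in dense-core vesicles and release them when calcium enters the cell. Granins help to form the vesicle and its cargo, membrane proteins such as synaptophysin mark it, and SNARE proteins with their calcium sensors fuse it with the plasma membrane. In the colon this programme belongs to the rare enteroendocrine cells of the epithelium, and its genes serve as markers of neuroendocrine differentiation in tumours. Of the 10 genes, ENO2 encodes a cytosolic enzyme and INSM1 a transcription factor, so the name covers markers of the cell type as well as vesicle proteins. In nonneuronal cells many of these genes are known to be held low by the repressor REST, which binds a DNA element called RE1, and several granin genes are known to carry a cyclic AMP response element (CRE) near their start.

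TEAD-type sites (MCAT), CRE and RE1 were looked for in the promoters because the knocked-down factor and these known elements can be read there. RefSeq promoters (GRCh38.p14, 250 bases before to 50 bases after the gene start) were found for 7 of the 10 genes, and those of CHGB, SCG2 and INSM1 were not matched. The 3 member promoters with a match are shown with those of VGF and SYN1, which carry an RE1 and are described further on. Capitals mark the matches, and each sequence runs 5′ to 3′ on the strand of its gene.
SYP (chrX:49200144-49200443, minus strand): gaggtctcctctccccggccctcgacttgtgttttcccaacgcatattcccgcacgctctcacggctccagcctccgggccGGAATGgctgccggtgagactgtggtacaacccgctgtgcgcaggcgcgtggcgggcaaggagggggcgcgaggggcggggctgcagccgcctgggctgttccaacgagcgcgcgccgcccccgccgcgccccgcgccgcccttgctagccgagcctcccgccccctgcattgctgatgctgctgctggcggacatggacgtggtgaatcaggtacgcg
SCG3 (chr15:51681253-51681552, plus strand): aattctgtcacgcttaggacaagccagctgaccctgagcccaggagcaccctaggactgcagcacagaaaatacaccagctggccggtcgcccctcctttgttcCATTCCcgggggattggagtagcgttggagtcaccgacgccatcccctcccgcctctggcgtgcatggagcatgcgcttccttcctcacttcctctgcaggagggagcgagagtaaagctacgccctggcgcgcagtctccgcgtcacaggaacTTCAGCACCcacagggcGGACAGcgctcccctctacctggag
CHGA (chr14:92922900-92923199, plus strand): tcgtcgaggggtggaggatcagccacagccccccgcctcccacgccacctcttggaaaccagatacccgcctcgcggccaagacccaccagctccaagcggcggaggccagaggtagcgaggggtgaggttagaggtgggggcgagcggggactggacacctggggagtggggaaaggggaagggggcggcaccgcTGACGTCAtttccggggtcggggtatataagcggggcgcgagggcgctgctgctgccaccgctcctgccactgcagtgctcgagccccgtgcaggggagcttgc
VGF (chr7:101165520-101165819, minus strand): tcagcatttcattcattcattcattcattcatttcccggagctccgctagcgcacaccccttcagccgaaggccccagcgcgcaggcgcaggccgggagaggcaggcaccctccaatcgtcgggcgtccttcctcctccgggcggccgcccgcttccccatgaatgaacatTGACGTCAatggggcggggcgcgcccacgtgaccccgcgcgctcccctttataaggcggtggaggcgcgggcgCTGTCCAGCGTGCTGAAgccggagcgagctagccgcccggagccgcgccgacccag
SYN1 (chrX:47619808-47620107, minus strand): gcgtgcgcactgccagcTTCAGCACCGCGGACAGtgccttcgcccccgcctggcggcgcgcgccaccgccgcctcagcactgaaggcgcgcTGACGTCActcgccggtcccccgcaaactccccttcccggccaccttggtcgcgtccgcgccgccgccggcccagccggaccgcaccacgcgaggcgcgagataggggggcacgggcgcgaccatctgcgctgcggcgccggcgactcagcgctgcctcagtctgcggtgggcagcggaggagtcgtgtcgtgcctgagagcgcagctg
Both strands were searched for the MCAT motif GGAATG, the CRE motif TGACGTCA and the RE1 motif, TTCAGCACC followed after 2 free bases by GGACAG, with up to 2 mismatches in its fixed letters. Among all 35116 promoters of this length, 14.0% held the MCAT motif, 1.85% the CRE and 0.188% the RE1. SYP held an MCAT motif 169 bases before its start and SCG3, on the opposite strand, 146 bases before its start. CHGA held a CRE 54 bases before its start. None of the 7 member promoters held the RE1 in its fixed spacing. The SCG3 sequence does hold both arms of the RE1, TTCAGCACC and GGACAG, without a mismatch but 8 bases apart, just past the gene start. This wider spacing was searched after the SCG3 sequence had been seen. With arms 3 to 12 bases apart, it occurred in 10 of the 35116 promoters (0.0285%). These matches describe letters in a window and not bound sites.

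The targeted gene, TEAD4, lies on the plus strand of chromosome 12 (2959330 to 3040673, GRCh38). It stood at 268 and 234 normalized counts in SW620 shTEAD4 libraries 1 and 2, against 1140.4 in SW620 pLKO, or 23.5% and 20.5% of the control. In HCT116 it stood at 68.2 and 68.6 in shTEAD4, against 355 in pLKO, or 19.2% and 19.3%, so all 4 knockdown libraries were below their control. In SW620 the ratio of library 2 to library 1 for TEAD4 was 0.873, with a 95% counting interval of 0.729 to 1.04. Normalized counts are reads divided by a size factor per library, and a library's reads on named genes numbered 15778571 to 18859715. The 2 lines were normalized in separate tables, so levels are compared within a line. Intervals are exact (Poisson for a level, binomial for a ratio of 2 libraries) and cover counting error only.

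In SW620, 5 of the 10 genes were far higher in knockdown library 2 than in pLKO: SCG3, CHGA, CPLX2, SYP and CHGB, by 37.0-, 27.3-, 26.8-, 17.6- and 5.67-fold in that order. In knockdown library 1, SCG3, SYP and CPLX2 were 4.18-, 3.80- and 3.07-fold higher, CHGB was 1.60-fold higher and CHGA, at 2 reads against 3 in pLKO, showed no difference that its depth could show. SYT1 and ENO2 were lower in library 2 than in pLKO. Because the genes were chosen on this contrast, the SW620 values are a description and carry no test. In bulk RNA, more cells of a type and more RNA per cell cannot be told apart.

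**Figure D1:**
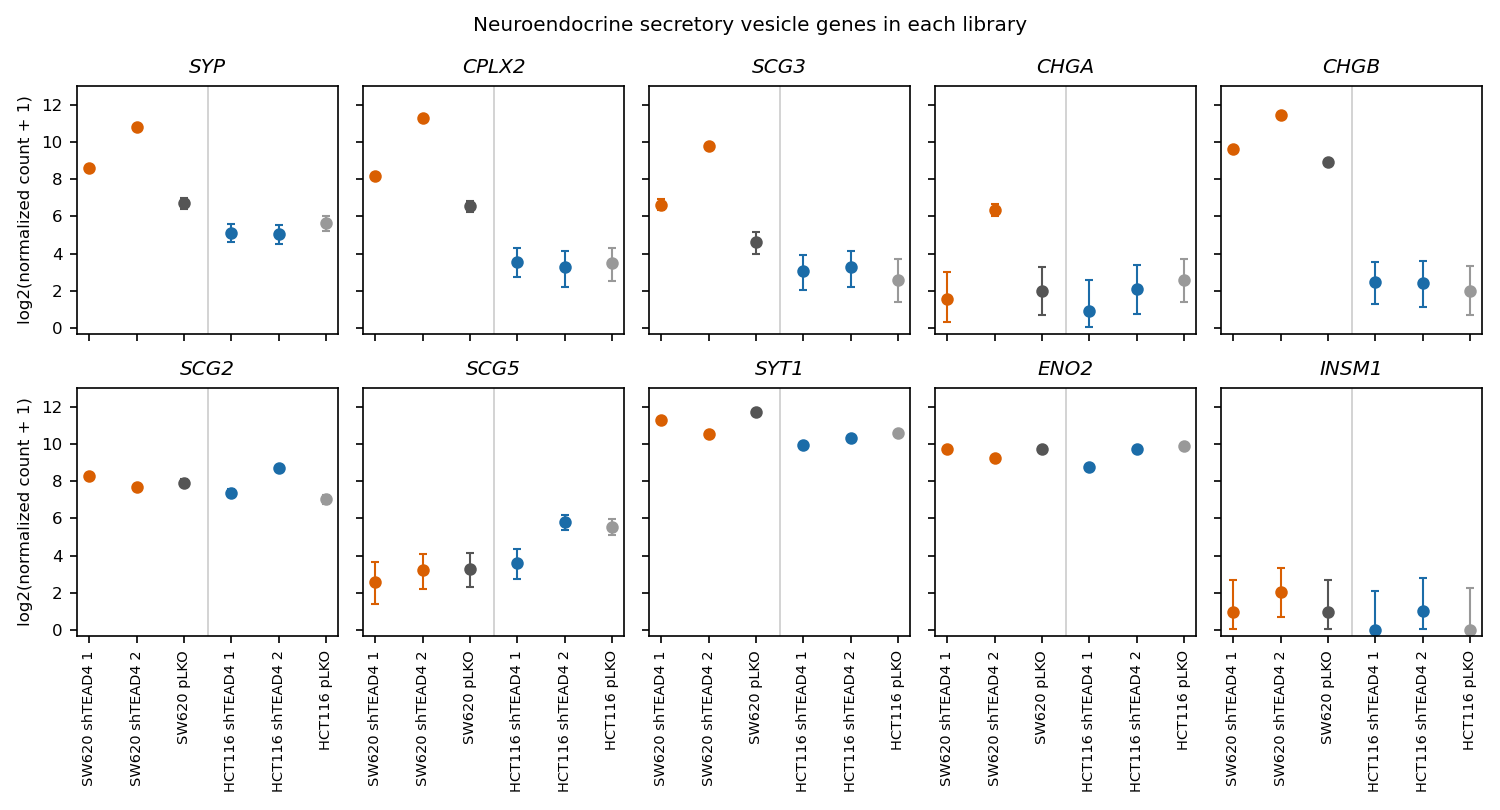
Level of each of the 10 genes in each library, on a log2(normalized count + 1) scale, with SW620 shTEAD4 libraries 1 and 2 and pLKO on the left of each panel and HCT116 in the same order on the right. Bars are exact 95% Poisson intervals of the count. SYP, CPLX2, SCG3 and CHGB are highest in library 2, then library 1, then pLKO in SW620, CHGA is high in SW620 library 2 alone, and none of these 5 is above 50 normalized counts in HCT116.

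The vesicle membrane protein synaptophysin (SYP; chromosome X, 49187804 to 49200259, minus strand, GRCh38) had 389 and 1802 normalized counts in SW620 shTEAD4 libraries 1 and 2, against 103 in pLKO. Both knockdown libraries were above the control, and library 2 was 4.63-fold above library 1 (4.15 to 5.17). The counting intervals of the ratios to pLKO were 3.06 to 4.76 in library 1 and 14.4 to 21.6 in library 2. SYP shares exonic sequence with the antisense gene SYP-AS1, and the library kit keeps no strand, so reads of the 2 cannot be told apart.

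Complexin 2 (CPLX2; chromosome 5, 175796310 to 175884020, plus strand), which binds the assembled SNARE complex and tunes its fusion, had 285 and 2485 normalized counts in SW620 shTEAD4, against 92.8 in pLKO. Its ratios to pLKO were 3.07 (2.43 to 3.91) and 26.8 (21.8 to 33.2). Again both knockdown libraries were above the control, and library 2 stood 8.73-fold above library 1. The calcium sensor of fusion, synaptotagmin 1 (SYT1; chromosome 12, 78863993 to 79452008, plus strand), went the other way. It had 2499.7 and 1457 normalized counts in SW620 shTEAD4, against 3309.9 in pLKO, ratios of 0.755 (0.717 to 0.795) and 0.440 (0.414 to 0.469). SYT1 also overlaps an antisense gene, AC090709.1, in its exons.

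Among the granins, secretogranin III (SCG3; chromosome 15, 51681353 to 51721031, plus strand), which tethers chromogranin A to the vesicle membrane, had 97.9 and 868 normalized counts in SW620 shTEAD4, against 23.4 in pLKO. Its ratios were 4.18 (2.65 to 6.82) and 37.0 (24.7 to 58.1), and library 2 was 8.87-fold above library 1. Chromogranin B (CHGB; chromosome 20, 5911430 to 5925361, plus strand) had 774 and 2747 normalized counts in SW620 shTEAD4, against 484 in pLKO, where it was already well expressed. These are ratios of 1.60 (1.43 to 1.79) and 5.67 (5.15 to 6.26). Chromogranin A (CHGA; chromosome 14, 92923080 to 92935293, plus strand), the granin most used as a tumour marker, had 2 and 78 reads in shTEAD4, against 3 in pLKO. Its ratio in library 2 was 27.3 with a wide interval of 9.01 to 135, and in library 1 it was 0.675 (0.0564 to 5.89). CHGA thus parted the 2 knockdown libraries more than any other of the 10 genes, by 40.5-fold (10.8 to 340).

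The other 2 granins did not share this pattern. Secretogranin II (SCG2; chromosome 2, 223596940 to 223602503, minus strand), the precursor of secretoneurin, had 312 and 202 normalized counts in SW620 shTEAD4, against 241 in pLKO. The control lay between the knockdown libraries, with ratios of 1.30 (1.09 to 1.54) and 0.838 (0.691 to 1.01). Secretogranin V (SCG5; chromosome 15, 32641676 to 32697098, plus strand), the chaperone of the prohormone convertase PCSK2, had 5 and 8 reads in shTEAD4, against 9 in pLKO. At that depth a difference was not detectable. SCG5 overlaps the antisense gene AC123768.1 in its exons.

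Neuron-specific enolase (ENO2; chromosome 12, 6913745 to 6923698, plus strand) had 841 and 596 normalized counts in SW620 shTEAD4, against 850.4 in pLKO. Library 1 was within counting error of the control (0.989, 0.899 to 1.09) and library 2 was lower (0.701, 0.630 to 0.779). INSM1 (chromosome 20, 20368121 to 20370949, plus strand), a zinc-finger factor that directs endocrine differentiation, had 1 and 3 reads in shTEAD4, against 1 in pLKO. It was thus barely detected in any SW620 library, while SYP, CPLX2, SCG3 and CHGB each had at least 846 reads in library 2.

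In reads per kilobase of the longest coding transcript, scaled to the library total (RPKM), the order of the levels differed between SW620 libraries. In shTEAD4 library 2 CHGB was first at 61.9, then SYP at 41.4, CPLX2 at 28.4, SYT1 at 17.4, SCG3 at 15.0, ENO2 at 12.1, SCG2 at 4.50, CHGA at 2.23, SCG5 at 0.380 and INSM1 at 0.0624. In pLKO SYT1 led at 38.8, then ENO2 at 17.0, CHGB at 10.7, SCG2 at 5.28, SYP at 2.31, CPLX2 at 1.04, SCG5 at 0.400, SCG3 at 0.399, CHGA at 0.0801 and INSM1 at 0.0195. SCG5 and SCG3 in pLKO did not differ beyond their counting error. Library 1 had SYT1 first at 27.9, then CHGB at 16.3, with ENO2 and, at 8.36, SYP after it, and thus kept SYT1, the leader in pLKO, in first place.

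Of the 10 genes, 9 had at least 10 reads over the 3 SW620 libraries, the minimum for counting folds, and INSM1 did not. A gene was counted as 4-fold higher or lower on the log2(normalized count + 1) scale, which draws low counts toward 0. In library 2, 5 of the 9 were at least 4-fold higher than pLKO and 0 were at least 4-fold lower, where 1.24% of 15957 genes were at least that much higher and 1.11% at least that much lower. In library 1, only SCG3 was at least 4-fold higher, beside 0.326% of all genes, and it was also the only one of the 9 to be so in both libraries, beside 0.163%. Library 2 was at least 4-fold above library 1 for 4 of the 9 (SYP, CPLX2, SCG3 and CHGA), beside 2.18% of all genes, and at least 4-fold below it for 0, beside 0.696%. The median log2 ratio of the 9 genes was 0.37 in library 1 and 2.50 in library 2, and 0.01 in both for all genes. Nothing is read from these counts, since the members were chosen on them.

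**Figure D2:**
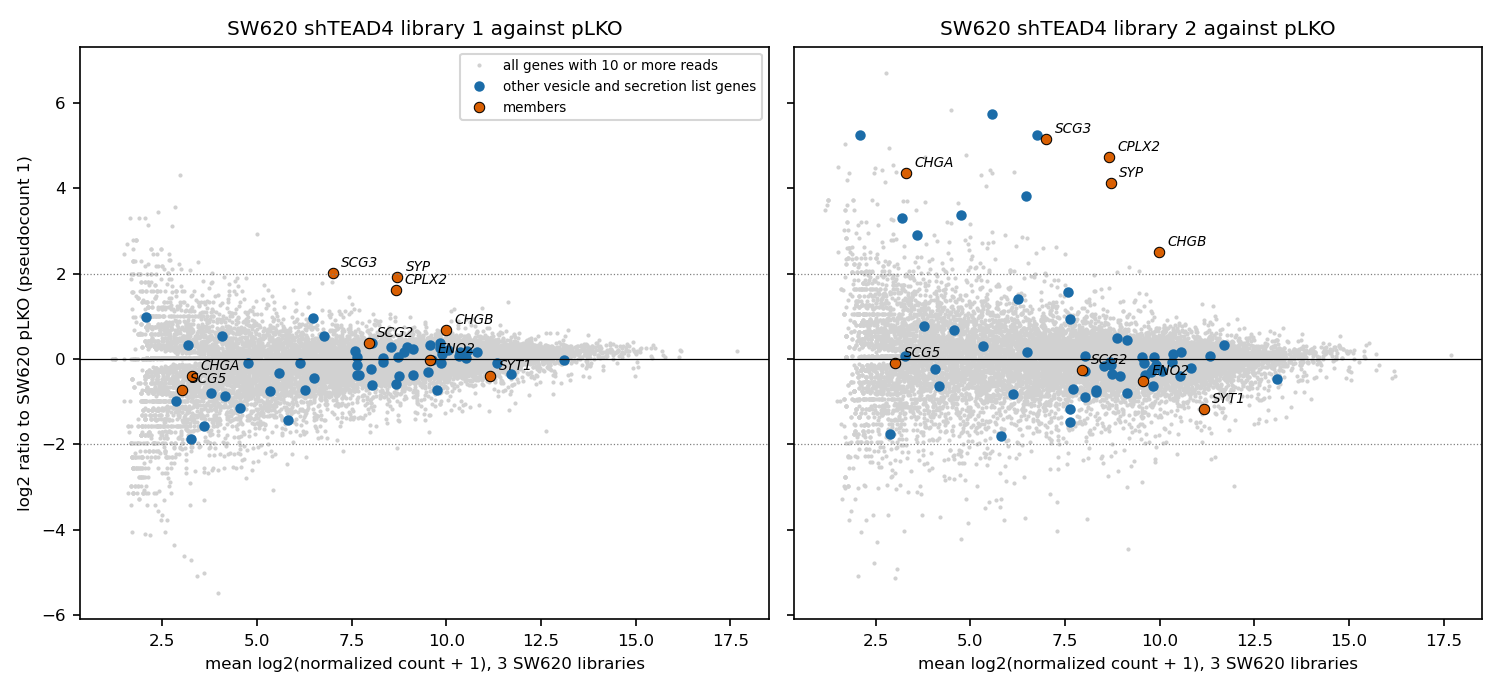
Log2 ratio of SW620 shTEAD4 library 1 (left) and library 2 (right) to SW620 pLKO, against the mean level, for all genes with at least 10 reads in grey, other vesicle and secretion genes in blue and the members in orange. SYP, CPLX2, SCG3, CHGA and CHGB lie above a log2 ratio of 2 in library 2, and only SCG3 does in library 1.

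Limma tested the 18743 genes that averaged 1 or more normalized counts, and 0 of them (0%) passed an adjusted p of 0.05 in SW620, while 272 had an unadjusted p under 0.05. The edgeR test on the recovered whole reads called 0 genes (0%) as well, and DESeq2 on the same reads called 7 genes (0.0373%). These tests use the contrast on which the members were chosen and are given only as the background of the tables. In the authors' deposited table, whose log2 fold changes are shrunken toward 0, 3 of 13300 genes with an adjusted p (0.0226%) passed the threshold. That table gave SYP 0.14 ± 0.11 (SE), CPLX2 0.10 ± 0.09, SCG3 0.10 ± 0.09, CHGB 0.13 ± 0.13 and CHGA 0.15 ± 0.11, and SYT1 -0.45 ± 0.21. These shrunken values from the authors' deposited table are small beside the log2 ratios of single libraries.

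In HCT116 the members did not show the SW620 pattern. CHGA and INSM1 had fewer than 10 reads over the 3 HCT116 libraries. On the same scale, none of the other 8 was at least 4-fold higher or lower than pLKO in either knockdown library, where 2.32% of 16239 genes were that much higher and 3.28% that much lower in library 1, and 0.456% and 2.53% in library 2. None was 4-fold higher in both, beside 0.246%. The 5 genes that stood out in SW620 were all low. SYP had 33.7 and 32.2 normalized counts in HCT116 shTEAD4, against 48.8 in pLKO, with ratios of 0.690 (0.437 to 1.08) and 0.659 (0.403 to 1.06), whose intervals include 1. CPLX2 had 12 and 8 reads in shTEAD4, against 10 in pLKO, and SCG3 8 and 8 reads, against 5. CHGA had 1 and 3 reads in shTEAD4, against 5 in pLKO, and CHGB 5 and 4 reads, against 3. None of these 4 genes differed from pLKO by more than counting error. INSM1 had 0 and 1 reads in shTEAD4 and 0 in pLKO.

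The members with more reads in HCT116 split between the knockdown libraries. SCG2 had 161 and 413 normalized counts in shTEAD4, against 128 in pLKO, and was 3.22-fold higher in library 2 (2.63 to 3.97) and 1.26-fold in library 1 (0.995 to 1.59). SCG5 had 10.9 and 54.7 in shTEAD4, against 45.7 in pLKO, so it was low in library 1 alone, at 0.239 of the control (0.115 to 0.459), a log2 ratio of -1.97 on the scale used for counting. ENO2 had 430 and 833 in shTEAD4, against 936 in pLKO, and SYT1 had 975 and 1294, against 1525. Both were lower in both knockdown libraries. SYT1 and ENO2 were thus below their control in all 4 knockdown libraries of the study, ENO2 in SW620 library 1 within counting error. Library 2 was at least 4-fold above library 1 for SCG5 alone (5.01-fold, 2.63 to 10.3), beside 2.23% of all genes, and at least 4-fold below it for none of the 8, beside 3.42%.

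**Figure D3:**
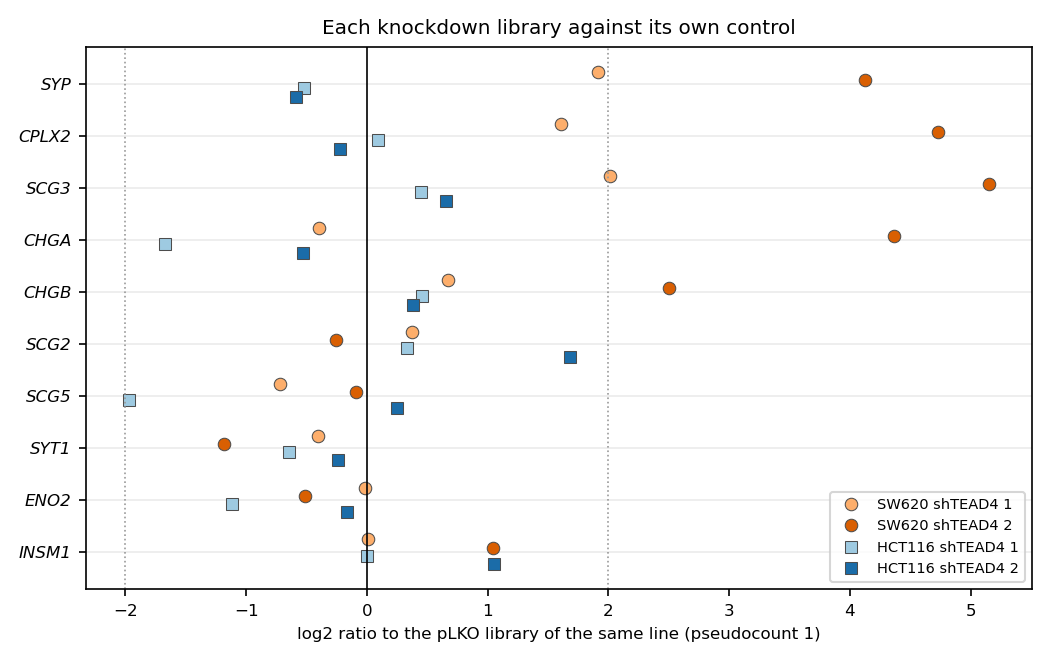
Log2 ratio of each knockdown library to the pLKO library of its own line, with a pseudocount of 1, for each of the 10 genes. SYP, CPLX2, SCG3, CHGA and CHGB lie far to the right in SW620 shTEAD4 library 2 and at 0.65 or lower in HCT116, while SYT1 lies left of 0 in all 4 libraries.

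With limma over all genes, none of the 10 passed in HCT116, where 0 of 18743 genes passed (0%) and 1036 had an unadjusted p under 0.05. The edgeR test also called 0 genes (0%), DESeq2 called 17 (0.0907%), and 6 of 20458 (0.0293%) passed in the authors' deposited table. DESeq2 called 0 of the 10 genes. The limma estimate was positive for 4 members and negative for 6. These include INSM1 and CHGA, each with fewer than 10 reads over the HCT116 libraries. INSM1 counts as higher on 1 read in library 2, against 0 in pLKO. The split was not set beside that of all genes, so nothing is read from it. The number with an unadjusted limma p below 0.05 was 0. SCG2 had the smallest adjusted p, with a log2 fold change of 1.00 ± 0.67 (SE, limma adjusted p = 0.833). ENO2 stood at -0.64 ± 0.49 (limma adjusted p = 0.843) and SYT1 at -0.44 ± 0.42 (limma adjusted p = 0.874). SYP stood at -0.55 ± 0.94 (limma adjusted p = 0.933), and the other 6 had adjusted p-values from 0.905 to 1. TEAD4 itself, at -2.36 ± 0.35, had a limma adjusted p of 0.828, so the test did not call a gene at 19.2% of its control, and the count of 0 does not show that the members did not differ. The model shares 1 spread over both lines, so the standard errors of SYP, CPLX2, SCG3 and CHGA in HCT116 hold the gap between the SW620 knockdown libraries. The median log2 ratio of the 8 members was -0.21 in library 1 and 0.042 in library 2, and over all genes it was 0 and 0.02.

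The rest of the secretory pathway was read from 5 lists of granins, processing enzymes, vesicle membrane proteins, exocytosis machinery and synaptotagmins, 67 genes outside the 10. In SW620, 53 of them had at least 10 reads. In library 2, 7 of the 53 were at least 4-fold higher than pLKO, beside 1.24% of all genes, and 0 were that much lower, beside 1.11%. In library 1, 0 were at least 4-fold higher, beside 0.326%, and 0 that much lower, beside 1.24%. The median log2 ratio of the 53 was -0.10 in library 2 and -0.08 in library 1, beside 0.01 in each for all genes. The 7 were VGF, UNC13A, SNAP25, CPLX1, SYN1, PCSK1 and RIMS2, and all but VGF are named here after their values were seen. The lists were chosen with earlier results of these data known, so their counts are a description and carry no test.

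VGF, a granin-like precursor of neuropeptides, had 9.88 and 732 normalized counts in SW620 shTEAD4, against 12.7 in pLKO, a ratio of 57.7 in library 2 (33.5 to 109) and 0.779 in library 1 (0.306 to 1.92). UNC13A, which primes vesicles for fusion, had 40.5 and 1085, against 27.3 in pLKO, 39.7-fold in library 2 (27.3 to 60.0). The SNARE protein SNAP25 had 1 and 36 reads, against 0 in pLKO. Complexin 1 (CPLX1) had 56.3 and 417 normalized counts, against 28.3, and synapsin 1 (SYN1), which clusters vesicles, 10.9 and 131, against 11.7. The prohormone convertase PCSK1 had 4 and 37 reads, against 3 in pLKO, and RIMS2, a scaffold of the release site, 2 and 64 reads, against 8. All 7 were high in library 2, and of these CPLX1 alone had a library 1 interval above its control (1.25 to 3.23).

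Other genes of the same lists, named for their high mean level, lay nearer to their control. The processing enzymes CPE and PAM had 382 and 399.9, and 9747 and 7154 normalized counts in SW620 shTEAD4, against 507 and 9824 in pLKO. PTPRN2, a dense-core vesicle membrane protein, had 2425 and 2718, against 2581, and PCSK1N, the inhibitor of PCSK1, 228 and 282, against 269. Of the synaptotagmins, SYT7 was higher in library 2, at 145 and 380.4 in shTEAD4, against 127 in pLKO, and SYT11 was lower, at 568 and 420.4, against 734. The SNARE protein STX3 had 1381 and 1335, against 1235.

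In HCT116, 55 of the 67 genes had at least 10 reads, and RIMS2 was at least 4-fold higher in library 1, while SYT11 in both libraries and VAMP2 in library 1 were at least 4-fold lower. These are 1 higher and 2 lower of 55 in library 1, beside 2.32% and 3.28% of all genes, and 0 higher and 1 lower in library 2, beside 0.456% and 2.53%. VAMP2 is named after its values were seen. VGF and UNC13A, low in SW620 pLKO, were abundant in HCT116. VGF had 1713 and 3643 normalized counts in HCT116 shTEAD4, against 1257 in pLKO, 2.90-fold higher in library 2 (2.72 to 3.10). UNC13A had 1338 and 2409, against 2069.8. These levels come from separately normalized tables and are set beside the SW620 levels without a test.

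**Figure D4:**
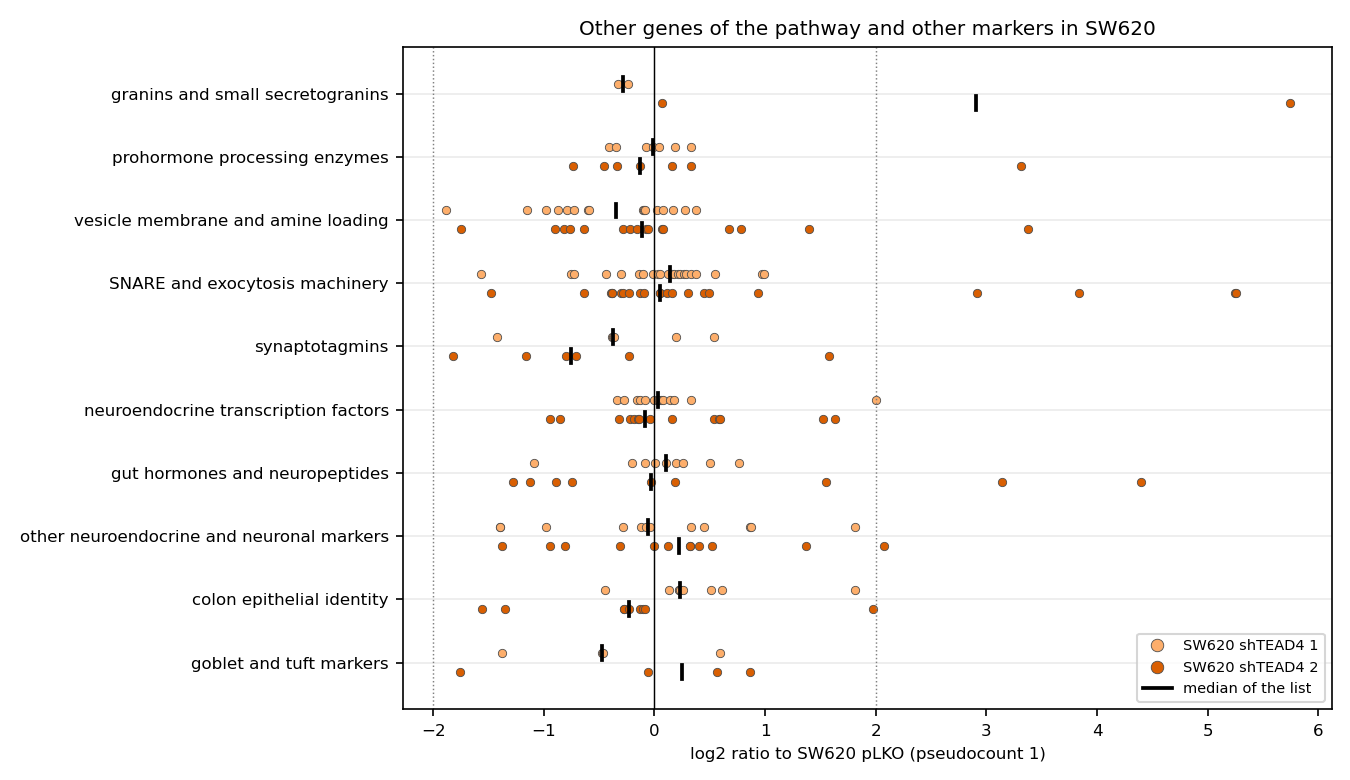
Log2 ratio to SW620 pLKO of the genes of each list outside the 10, in shTEAD4 libraries 1 and 2, with the median of each list as a line and dotted lines at 4-fold. The medians of the vesicle lists with more than 2 genes lie between -0.76 and 0.14, and single genes lie far to the right in library 2.

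Of the 12 members and list genes at least 4-fold higher in SW620 library 2, 8 had a RefSeq promoter. The RE1 was found in 2 of the 8 (SYN1 and VGF), the CRE in 4 (CHGA, PCSK1, SYN1 and VGF), the MCAT motif in 2 (SCG3 and SYP) and the RE1 arms at a wider spacing in 2 (SCG3 and UNC13A, each 8 bases apart). Of the other 65 genes, 49 had a promoter, with the RE1 in 1, the CRE in 1, the MCAT motif in 5 and the widely spaced arms in 0. These 65 include genes with fewer than 10 reads in SW620, which could not be counted as higher. Among them are RPH3A, which held the RE1, and RIMS1 and SYT16, which held the MCAT motif. Of all 35116 promoters, 0.188% held the RE1, 1.85% the CRE, 14.0% the MCAT motif and 0.0285% the widely spaced arms, while a gene can have more than 1 promoter. In the sequences above, the RE1 of SYN1 had no mismatch and lay 233 bases before the start, and that of VGF had 1 mismatch and lay 6 bases before it. The set of 12 was chosen on its values, so these shares are a description. The wider spacing was taken from the SCG3 sequence, so SCG3 was bound to hold it and nothing is read from that count. REST, the repressor that binds the RE1, had 1111 and 688 normalized counts in SW620 shTEAD4, against 1242 in pLKO, or 89.5% and 55.4% of the control. Its partner RCOR1 had 2046 and 1753.5, against 2048. In HCT116 REST had 1268 and 762, against 837. The part of REST in the vesicle genes was not tested.

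Of the 20 hormone and neuropeptide genes, 9 had at least 10 reads in SW620, and 2 of the 9, DDC and CALCA, were at least 4-fold higher in library 2, beside 1.24% of all genes. DDC, which makes serotonin and dopamine from their precursors, had 35.6 and 451 normalized counts in shTEAD4, against 20.5 in pLKO. CALCA, the calcitonin gene, had 1 and 16 reads, against 1, and is named after its values were seen. GCG, PYY, SST, TAC1, NTS, CCK, NPY and GRP, 8 of the 20, had 0 reads in all SW620 libraries and are named after this was seen. Galanin (GAL) had 2282 and 2163 normalized counts, against 1904. NMU was lower in both libraries, at 32.6 and 31.8, against 70.3 in pLKO. ADM had 31.6 and 15.4, against 29.3, and was lower in library 2 alone. The list of transcription factors holds endocrine factors and also REST, RCOR1, RCOR2 and HES1. Among its 14 genes with at least 10 reads, ISL1 alone was at least 4-fold higher in library 1, beside 0.326% of all genes. In library 2, 0 of the 14 were, beside 1.24%. ISL1 had 7 and 5 reads, against 1 in pLKO, with ratios of 7.09 (0.910 to 319) and 5.25 (0.588 to 248). ST18 had 570.3 and 1581 normalized counts, against 549, and was 2.88-fold higher in library 2 (2.61 to 3.18). PROX1 had 10368 and 8257, against 9395. NEUROD1 and NEUROG3 had 0 reads in all SW620 libraries, as had PAX4 and SOX11. Of these factors, all but PROX1, REST and RCOR1 are named after their values were seen. Of 12 other neuroendocrine and neuronal markers with at least 10 reads, STMN3 alone was at least 4-fold higher in library 2, beside 1.24% of all genes. It had 644 and 1479 normalized counts, against 350.5, and L1CAM had 997 and 393, against 1024.

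Markers of other cells were read beside these results. Of 10 colon epithelial genes, 9 had at least 10 reads in SW620 and 0 were at least 4-fold higher or lower in either library. Over all genes, 0.326% were that much higher and 1.24% lower in library 1, and 1.24% and 1.11% in library 2. KRT19 had 15529 and 5213 normalized counts in shTEAD4, against 13330.2 in pLKO, and CDX2, named after its values were seen, 416 and 91.3, against 271. Both were lower than pLKO in library 2 and not in library 1. CDH17, an intestinal cadherin also named after its values were seen, was higher in both libraries, at 185 and 206, against 51.7, with ratios of 3.57 (2.62 to 4.94) and 3.98 (2.93 to 5.50). EPCAM had 8350.2 and 6509, against 6984. In SW620 the 8 fibroblast markers summed to 674 and 935 in shTEAD4, against 1123 in pLKO, the 8 leukocyte markers to 1005 and 641, against 1059, and the 5 endothelial markers to 17.8 and 16.4, against 46.9. In library 1, 4 of the 8 fibroblast markers were at least 4-fold lower than pLKO, beside 1.24% of all genes, and in library 2, 0 were, beside 1.11%. CD4 was the highest leukocyte marker in each SW620 library. It had 798 and 401 normalized counts in shTEAD4, against 727 in pLKO, a ratio of 0.551 in library 2 (0.486 to 0.624). CD68 had 118 and 115.9, against 156, LYZ 60.3 and 71.8, against 125, and CD8A 17.8 and 32.8, against 20.5. The endothelial marker VWF had 17.8 and 12.3, against 36.1. By contrast, PTPRC, CD3E, PECAM1 and CDH5, which define leukocytes, T cells and endothelium, had 0 reads in all SW620 libraries. Of these 4, all but PECAM1 are named after their values were seen. The part of these markers in the vesicle genes was not tested.

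The genes with the pattern most like the members were taken from 11527 genes that averaged 20 or more normalized counts in every group, by the Euclidean distance of their log2 ratios over the 4 knockdown libraries from the medians of the members. The nearest 8 were LOC102724699 (distance 0.528), CABP1 (0.724), TMEM145 (0.805), BSN (0.908), RUNDC3A (0.943), ARHGAP22 (0.974), CKMT1B (1.03) and DLL4 (1.10). BSN, the presynaptic scaffold bassoon, had log2 ratios of 0.62 and 1.64 in SW620 shTEAD4 libraries 1 and 2 and of -0.15 and -0.08 in HCT116. RUNDC3A had 0.58 and 2.64 in SW620 and -0.24 and -0.87 in HCT116. CABP1, a neuronal calcium-binding protein, had 0.08 and 2.25 in SW620 and 0.30 and -0.28 in HCT116. CKMT1B has a near-identical copy, CKMT1A, and its counts are uncertain. All 8 had higher ratios in SW620 library 2 than in the other 3 knockdown libraries. This follows from how they were picked, since the member medians are highest in that library, and nothing is read from it.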

How the data were processed

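RNA was sequenced from 6 libraries, total RNA made into libraries with the TruSeq kit, per the labels' protocols. The authors deposited 1 table per line whose signal columns hold normalized counts, that is, read counts scaled by a size factor for each library. Dividing by the value of 1 read gave whole reads for 100% of the values (tolerance 1e-06). The same deposited tables give the authors' mean signal, log2 fold changes and their errors, a test score, and the raw and adjusted p-value. The submitters' processing notes list Bowtie 0.12.2 and hg18 without a role. For the gene counter and its annotation, a name is not given in the sources. Per library, from 0.232% to 0.262% of reads fell on 28 features with date-like names, which were left out.

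Limma 3.58.1 (R 4.3.3, eBayes with trend, two-sided, Benjamini-Hochberg) was fitted on log2(normalized count + 1) with the 4 groups as terms, which leaves 2 residual degrees of freedom. Fold changes on this scale understate the change of low genes. EdgeR 4.0.16 and DESeq2 1.42.0 were run on the recovered whole reads as alternatives. The fit was checked on simulated counts whose spread between libraries was set in advance and not taken from these data. That check does not show how the fit performs at the spread seen here. The 2 knockdown libraries of each line differed by more than counting noise, with a chi-square divided by its degrees of freedom of 28.9 (SW620) and 102 (HCT116). Levels per kilobase use the longest coding transcript of GENCODE 29, which also gives the positions. Promoters are RefSeq's.

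The members and gene lists were chosen with earlier results of these data known. Named genes are the 10 members, TEAD4, up to 4 genes of each list with the highest mean count, any list gene with an adjusted p under 0.05 in HCT116, and the 8 nearest genes. List genes outside this rule are named after their values were seen.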

Additional observations from a re-analysis of the deposited data

Results flagged for a closer look

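SYP, the gene of synaptophysin, differed in direction between the lines. It was higher than pLKO in both SW620 knockdown libraries and lower in both HCT116 ones, and its mean log2 ratio in SW620 exceeded that in HCT116 by 3.57. The difference between the lines was not tested, and the 2 HCT116 ratios lie within counting error of no difference. SYP was chosen with its SW620 values known, so the gap between the lines is a description.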

How the results depend on the processing

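No paired analysis was possible because the table columns number the knockdown libraries but give the single control no partner number, and the labels' letters are not in the columns. In SW620, 0 genes were called with limma and 7 with DESeq2; in HCT116, 0 with limma, 17 with DESeq2 and 545 with no filter on low values, and the cause was not tested. Pseudocounts of 0.5 and 5, a minimum mean of 10, median centring, library totals, edgeR, the line alone and leaving out a library gave 0 in both lines, where the only control of a line could not be left out of its own contrast. The median log2 ratio of the members in SW620 was 1.59, with a range of 0.37 to 2.50 over leaving out a knockdown library, so library 2 decides it. In HCT116 it was -0.25, and -0.55 with at least 50 reads, with a range of -0.21 to 0.042 when 1 knockdown library was left out; the cause was not tested. In HCT116, leaving out a knockdown library gave CPLX2 a log2 fold change from -0.22 (without library 1) to 0.094 (without library 2), SCG5 from -1.97 (without library 2) to 0.25 (without library 1) and INSM1 from 0 (without library 2) to 1.05 (without library 1), and the cause was not tested. The 7 list genes higher in SW620 library 2 became 9 at 2-fold, 6 at 8-fold and 7 with pseudocounts of 0.5 and 5, alternatives added after the data were seen.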
